A study of Mus musculus with 24 samples.

Results

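Chemokines and their receptors were followed in the injured mouse heart as a family of 63 genes, out of 46078 in the unfiltered count table that the authors deposited. They were all genes whose symbol begins with Ccl, Cxcl, Ccr, Cxcr or Ackr followed by a digit, together with Cx3cl1 and Cx3cr1. Of the 63, 41 were above 0.5 CPM (reads of a gene scaled to a common library total) in at least 6 of the 24 libraries and were tested among 15456 genes. These 41 were 27 ligands, 11 receptors and 3 atypical receptors, and the other 22 stayed below that level.

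All animals were male C57BL/6 mice aged 10 weeks, and the ventricular apex was sequenced at what the series calls Day 5 as polyadenylated RNA, with 1 library per animal. The 4 groups of 6 were DTR_PYR (injury brought about by diphtheria toxin, with pyridostigmine, an inhibitor of cholinesterase), DTR_PBS (the same injury, with the vehicle PBS), WT_PYR (no toxin, pyridostigmine) and WT_PBS (no toxin, PBS). DTR and WT come from the titles. Which cells carry DTR, and the event from which Day 5 is counted, were not stated in the labels used here. Every injured animal is titled DTR and every uninjured one WT, so genotype and toxin cannot be told apart.

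Chemokines are small secreted proteins that form gradients on the extracellular matrix and on vessel walls, and leukocytes follow these gradients through G-protein-coupled receptors. In the heart, CCL2 and CCL7 draw CCR2-bearing monocytes out of the blood, the CXCR2 ligands draw neutrophils, and CXCL12 holds CXCR4-bearing cells in place. CX3CR1 marks many resident macrophages, and the atypical receptors, the Ackr genes, take chemokines up without G-protein signalling and so shape the gradients.

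Total counts ran from 2387030 to 37842245 reads in DTR_PYR libraries, 1877914 to 36318026 in DTR_PBS, 7238454 to 15294299 in WT_PYR and 3733114 to 34851656 in WT_PBS. A count of 3 reads corresponded to between 0.0793 and 1.60 CPM, so values of the rarest members rest on few reads in the shallow libraries. The first principal component of all tested genes carried 44.2% of the variance. On it DTR_PYR replicates 4, 5 and 6 lay at -35.4 to -20.9, DTR_PYR replicates 1 to 3 at 41 to 104, DTR_PBS at 30.3 to 114, and both WT groups at -57.2 to -35.1. Results that rest on those 3 libraries are therefore given with and without them. The animal tags end in U or V: 2 animals of each injured group and 4 of each uninjured group have U. Since the letters are unevenly spread over the groups, counts of calls within each letter are given for the injury comparisons and for pyridostigmine in injured hearts. Fold changes within each letter are given for a few genes only.

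Per kilobase of exon, Cxcl12 had the highest median ligand level in uninjured hearts, and the monocyte attractant Ccl2 in DTR_PBS hearts. Levels of different genes were compared as CPM per kilobase of exon, given here and for CPM below as the lowest, the median and the highest of 6 libraries. Cxcl12, which retains CXCR4-bearing cells, stood first in WT_PBS hearts at 27.4, 29.3 and 33.4 CPM per kilobase, and first in WT_PYR hearts at 23.4, 29.3 and 36. The next ligands in WT_PBS hearts were Cxcl14, an orphan chemokine, with a median of 12.3 CPM per kilobase, the lymphatic chemokine Ccl21a with 7.66 and the myeloid chemokine Ccl6 with 7.5. The ranges of Cxcl14, Ccl21a and Ccl6 overlapped there, so their order is not firm.

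In DTR_PBS hearts the highest ligand levels were those of Ccl2 at 39.6, 70.2 and 162 CPM per kilobase, Ccl6 at 26.8, 68.2 and 197 and Ccl7 at 25.8, 56.7 and 119, whose ranges overlapped. Cxcl14 had a median of 35.9 CPM per kilobase and Cxcl12 one of 21.3 in the same hearts. This order and the shares below depend on the length scaling, since the exon union is 8176 bases for Cxcl12 and 1138 for Ccl2. In CPM alone the DTR_PBS medians were 174 for Cxcl12, 122 for Ccl6 and 79.9 for Ccl2. In DTR_PYR hearts Ccl2 was at 5.47, 27.9 and 109 CPM per kilobase, with medians of 24.2 for Cxcl12, 22 for Cxcl14, 21.1 for Ccl7 and 20.3 for Ccl6. The ranges of these 5 ligands overlapped there, so no ligand stood first in DTR_PYR hearts. Summed over the 27 tested ligands, the level was 84.3, 172 and 553 CPM per kilobase in DTR_PYR hearts, 207, 404 and 698 in DTR_PBS hearts, 74.8, 81.9 and 118 in WT_PYR hearts and 69.8, 92.9 and 99 in WT_PBS hearts. Cxcl12 made up 3.51% to 32% of that sum in DTR_PYR libraries, 2.52% to 11.3% in DTR_PBS, 25.4% to 41.2% in WT_PYR and 28.9% to 39.3% in WT_PBS. Among receptor genes, Ackr3, Cxcr4 and Cx3cr1 had the highest medians in all 4 groups, with Ackr3 at 24.6 CPM per kilobase in DTR_PYR hearts, 19 in DTR_PBS, 33.1 in WT_PYR and 27 in WT_PBS. In DTR_PBS hearts their ranges overlapped those of Ccr1, at 1.13 to 17.3 CPM per kilobase, and Ccr2, at 1.72 to 17.1. The order of these receptor genes is therefore not firm there.

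**Figure D1:**
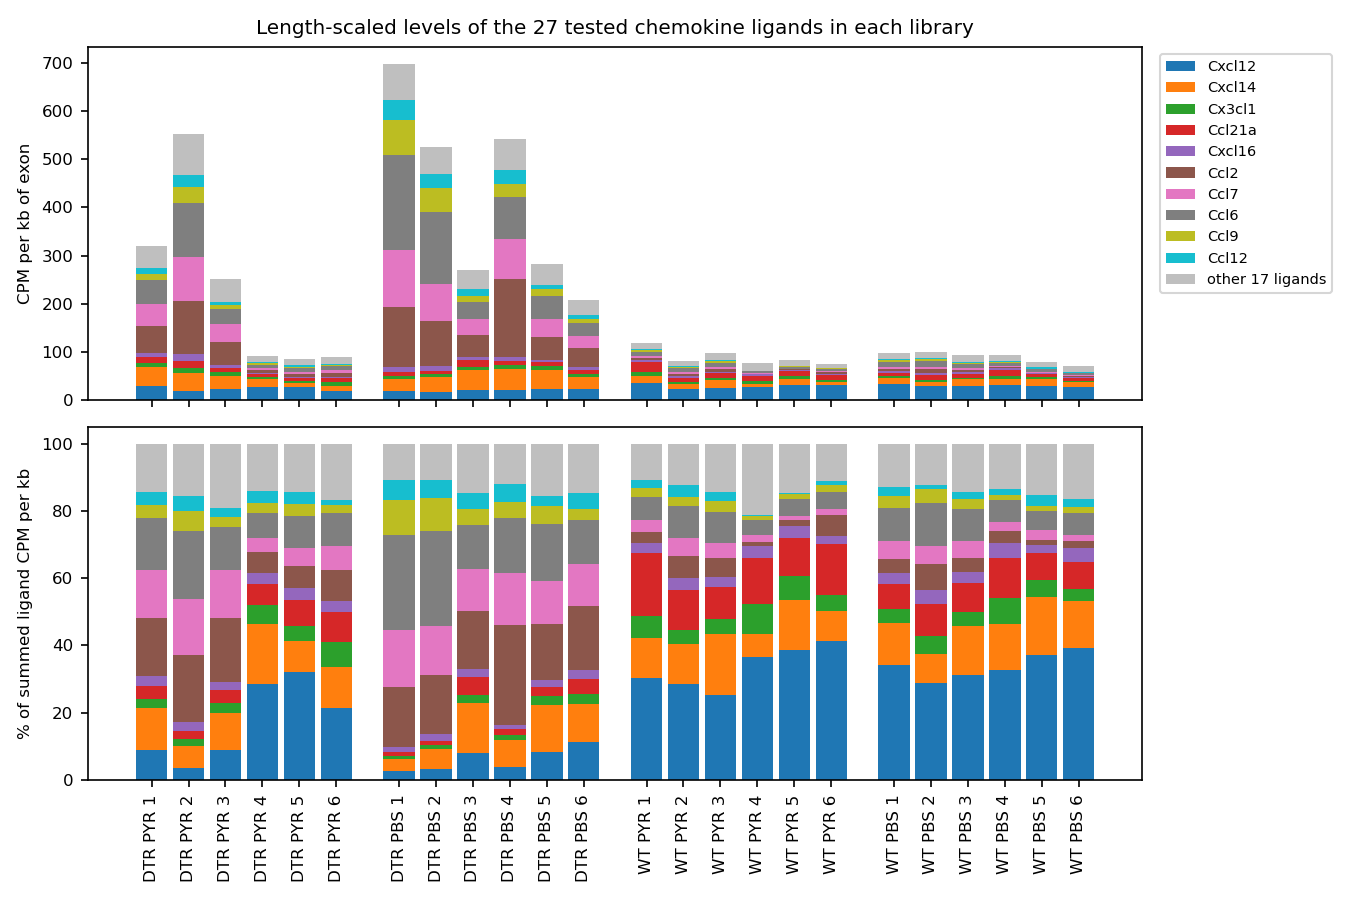
Level of the 27 tested chemokine ligands in each of the 24 libraries, as CPM per kilobase of exon (top, stacked) and as a percentage of their sum (bottom). Cxcl12 took 3.51% to 32% of the length-scaled sum in DTR_PYR libraries, 2.52% to 11.3% in DTR_PBS libraries and 28.9% to 39.3% in WT_PBS libraries.

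In PBS-treated animals, most of the family was higher in injured hearts. Of the 41 tested members, 26 rose and 5 fell in DTR_PBS against WT_PBS hearts at a Benjamini-Hochberg adjusted p under 0.05 in the edgeR quasi-likelihood test, against 21.3% of all tested genes that rose, 21.6% that fell and 42.9% called in either direction. The rises were 19 of 27 ligands and 7 of 11 receptors. The falls were the ligands Cxcl9, Cxcl12 and Ccl27a and the atypical receptors Ackr3 and Ackr4. The median log2 fold change over the 41 was 1.81, against 0.01 over all tested genes. In 22 members every DTR_PBS library lay above every WT_PBS library, a pattern that 11.2% of all tested genes showed, and in Cxcl9 and Cxcl12 every DTR_PBS library lay below, as in 11% of all tested genes. In bulk tissue a gene of 1 cell type that falls may reflect fewer such cells or less RNA per cell, and these cannot be told apart. The same holds for a rise. Within either tag letter all 26 that rose had log2 fold changes above 0, from 0.59 to 5.40 within U, where 25 were called, and from 0.77 to 6.59 within V, where 21 were. Calls over all genes numbered 5910 within U and 2520 within V, against 6634 with all libraries. The rise of Ccl19 was not called within U, and those of Ccl3, Ccl11, Ccl19, Ccr7 and Cxcr2 not within V. The falls of Cxcl9 and Ccl27a were not called within U, and those of Cxcl12, Ccl27a, Ackr3 and Ackr4 not within V.

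**Figure D2:**
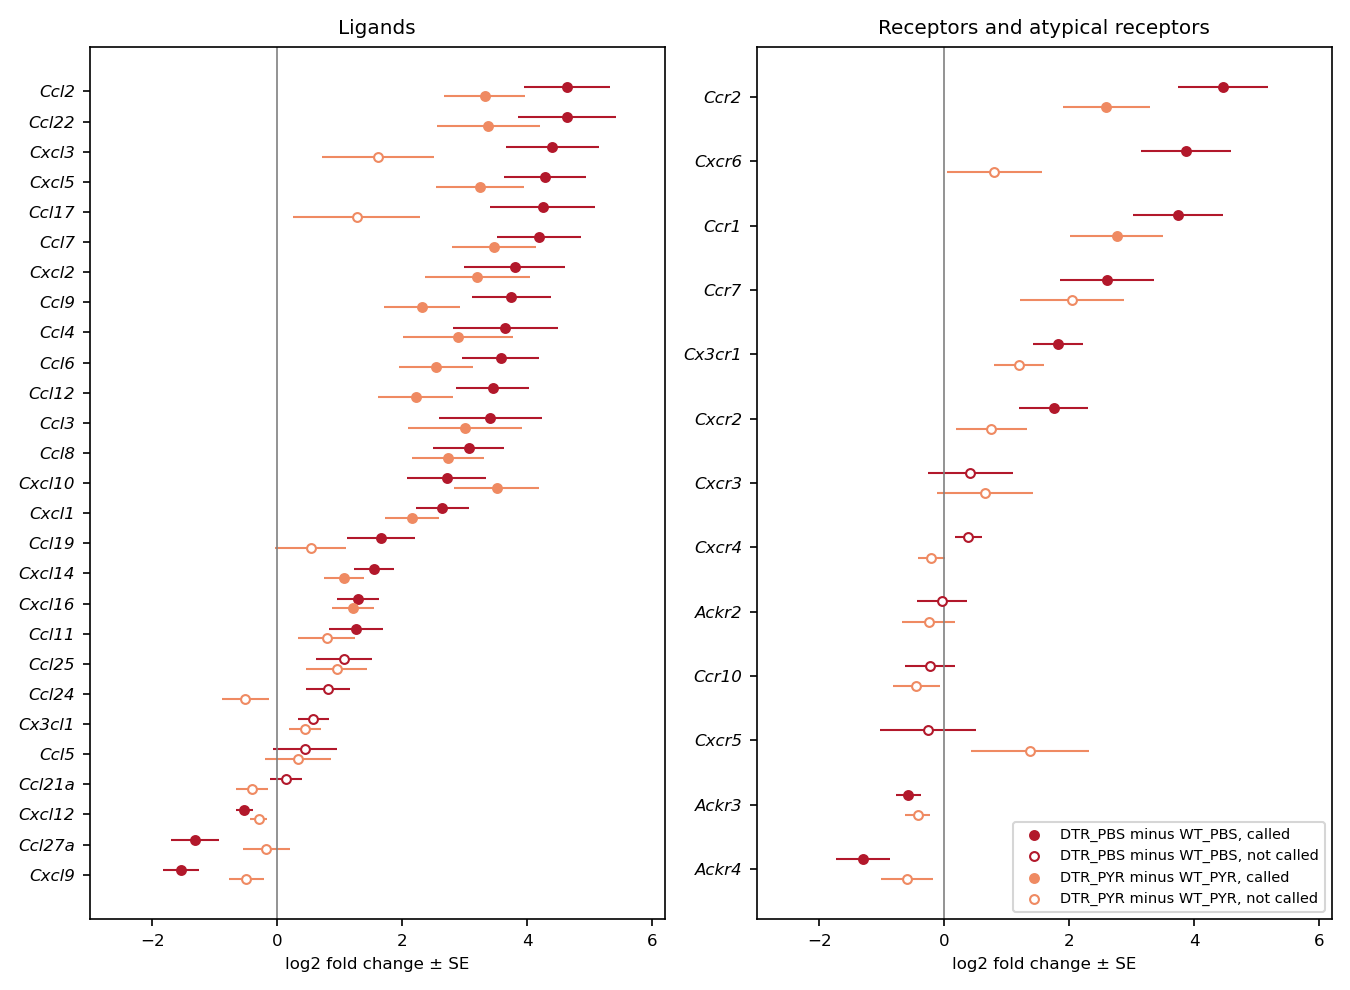
Log2 fold change ± SE (horizontal axis) of the 27 tested ligands (left) and 13 tested receptors and atypical receptors (right) with injury, under PBS (dark red) and under pyridostigmine (orange). Filled points passed an adjusted p under 0.05: of the 40 genes shown, 25 rises and 5 falls under PBS, 17 rises and 0 falls under pyridostigmine.

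The CCR2 axis rose throughout, ligands and receptor alike. Ccl2, the main attractant of monocytes, had 45.1, 79.9 and 184 CPM in DTR_PBS hearts, against 1.29, 4.15 and 8.96 CPM in WT_PBS hearts. The groups did not overlap, and the log2 fold change was 4.64 ± 0.69 (SE, adjusted p = 2.92e-05). Ccl7, which also binds CCR2, had 20.7, 45.4 and 95.1 CPM in DTR_PBS hearts, against 1.08, 2.83 and 4.12 CPM in WT_PBS hearts, a log2 fold change of 4.18 ± 0.67 (SE, adjusted p = 5.15e-05). Ccl12, a further CCR2 ligand of the mouse, had 4.63, 11 and 22.3 CPM in DTR_PBS hearts, against 0.543, 1.0 and 1.5 CPM in WT_PBS hearts, with a log2 fold change of 3.45 ± 0.58 (SE, adjusted p = 7.58e-05). All 6 DTR_PBS libraries exceeded all 6 WT_PBS libraries for each of these ligands. Ccl8, their chromosomal neighbour and in the mouse a CCR8 ligand, had 2.0, 5.72 and 10.8 CPM in DTR_PBS hearts, against 0.214, 0.803 and 1.63 CPM in WT_PBS hearts, and rose by 3.06 ± 0.56 on the log2 scale (SE, adjusted p = 0.000159), again without overlap.

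Ccr2, the receptor by which inflammatory monocytes leave the bone marrow and enter tissue, rose together with its ligands. It had 11.6, 24.5 and 116 CPM in DTR_PBS hearts, against 0.356, 1.9 and 4.07 CPM in WT_PBS hearts, a log2 fold change of 4.45 ± 0.72 (SE, adjusted p = 5.42e-05). The groups did not overlap, although the DTR_PBS libraries spanned a wide range. Within tag letter U the log2 difference was 5.40 and within V it was 3.65. The ratio of Ccr2 to Cx3cr1, in CPM per kilobase, was 0.351, 0.716 and 2.07 in DTR_PBS hearts, against 0.0208, 0.244 and 0.369 in WT_PBS hearts. That ratio overlapped slightly between the groups and was not tested.

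Inflammatory CC ligands of myeloid cells rose together with the receptor gene Ccr1, while Ccl5 did not pass. Ccl3 and Ccl4, which attract monocytes and T cells, had 1.88, 3.3 and 6.48 CPM and 1.62, 2.79 and 5.88 CPM in DTR_PBS hearts, against 0, 0.372 and 0.815 CPM and 0.0699, 0.215 and 0.676 CPM in WT_PBS hearts. Their log2 fold changes were 3.41 ± 0.82 (SE, adjusted p = 0.00167) and 3.65 ± 0.84 (SE, adjusted p = 0.00114). Neither gene's groups overlapped. Ccl6, a rodent CCR1 ligand made by myeloid cells, had 48, 122 and 354 CPM in DTR_PBS hearts, against 7.9, 13.5 and 23.1 CPM in WT_PBS hearts, a log2 fold change of 3.57 ± 0.62 (SE, adjusted p = 8.98e-05). Ccl9, another rodent CCR1 ligand, had 21.8, 62.7 and 219.9 CPM in DTR_PBS hearts, against 3.64, 6.29 and 12.5 CPM in WT_PBS hearts, a log2 fold change of 3.74 ± 0.63 (SE, adjusted p = 7.25e-05). For Ccl6 and Ccl9, too, every DTR_PBS library was above every WT_PBS library. Ccl5, a product of activated T cells and platelets, did not pass the test, with 0.887, 1.76 and 3.56 CPM in DTR_PBS hearts, against 0.664, 1.51 and 2.51 CPM in WT_PBS hearts and a log2 fold change of 0.44 ± 0.50 (SE, adjusted p = 0.506).

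Ccr1 had 3.2, 10.7 and 49 CPM in DTR_PBS hearts, against 0.428, 1.39 and 3.26 CPM in WT_PBS hearts, and rose by 3.74 ± 0.72 (log2 ± SE, adjusted p = 0.000245), with a small overlap between the lowest injured and the highest uninjured library. CCR1 is carried by neutrophils and monocytes.

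All 4 tested ligands of CXCR2, the receptor of neutrophils, rose. Cxcl1 had 5.73, 8.08 and 11.1 CPM in DTR_PBS hearts, against 0.428, 1.27 and 1.9 CPM in WT_PBS hearts, a log2 fold change of 2.64 ± 0.42 (SE, adjusted p = 5.13e-05). Cxcl2 had 1.63, 3.45 and 7.09 CPM in DTR_PBS hearts, against 0.0966, 0.268 and 0.643 CPM in WT_PBS hearts, a log2 fold change of 3.79 ± 0.81 (SE, adjusted p = 0.000596). Neither overlapped between the groups. Cxcl3 had 0.50, 2.2 and 4.43 CPM in DTR_PBS hearts, against 0, 0.0887 and 0.272 CPM in WT_PBS hearts, a log2 fold change of 4.40 ± 0.74 (SE, adjusted p = 7.22e-05). Cxcl5, made mainly by epithelial and stromal cells, had 2.8, 6.8 and 16.4 CPM in DTR_PBS hearts, against 0.193, 0.336 and 0.815 CPM in WT_PBS hearts, a log2 fold change of 4.28 ± 0.66 (SE, adjusted p = 3.87e-05). Again all DTR_PBS libraries stood above all WT_PBS libraries. Cxcr2 itself had 1.25, 2.34 and 4.43 CPM in DTR_PBS hearts, against 0.272, 0.575 and 1.33 CPM in WT_PBS hearts, and rose by 1.75 ± 0.55 (log2 ± SE, adjusted p = 0.0128), with overlap between the groups.

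The promoter windows of Cxcl1, Cxcl2 and Cxcl3 are shown because a short motif recurs in them, with those of Cxcl10 and Cxcl9, described next. The 250 bases before the annotated start were taken from RefSeq (build GRCm38.p6), which held an entry for 29 of the 41 tested members, and were searched on both strands for the kappa-B-type motif GGGANNTTCC, and then for the exact letters it matched in the Cxcl1 window, GGGAATTTCC. Capitals mark the bases covered by a match on either strand.
Cxcl1 (chr5:90890995-90891244, plus strand): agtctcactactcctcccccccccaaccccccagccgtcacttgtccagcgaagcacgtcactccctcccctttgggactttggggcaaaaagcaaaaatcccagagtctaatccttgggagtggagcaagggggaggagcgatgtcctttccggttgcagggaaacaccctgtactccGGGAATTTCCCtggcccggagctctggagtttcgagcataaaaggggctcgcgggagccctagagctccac
Cxcl2 (chr5:90903649-90903898, plus strand): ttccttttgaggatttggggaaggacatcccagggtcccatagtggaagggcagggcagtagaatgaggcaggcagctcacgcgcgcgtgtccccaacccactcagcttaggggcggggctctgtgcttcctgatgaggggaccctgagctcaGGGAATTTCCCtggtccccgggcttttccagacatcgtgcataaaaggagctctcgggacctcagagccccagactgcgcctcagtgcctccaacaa
Cxcl3 (chr5:90785851-90786100, plus strand): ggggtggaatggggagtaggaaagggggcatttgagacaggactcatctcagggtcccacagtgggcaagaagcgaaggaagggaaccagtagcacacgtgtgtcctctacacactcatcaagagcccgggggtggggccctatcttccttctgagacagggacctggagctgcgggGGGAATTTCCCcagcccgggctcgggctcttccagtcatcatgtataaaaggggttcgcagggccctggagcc
Cxcl10 (chr5:92348890-92349139, minus strand): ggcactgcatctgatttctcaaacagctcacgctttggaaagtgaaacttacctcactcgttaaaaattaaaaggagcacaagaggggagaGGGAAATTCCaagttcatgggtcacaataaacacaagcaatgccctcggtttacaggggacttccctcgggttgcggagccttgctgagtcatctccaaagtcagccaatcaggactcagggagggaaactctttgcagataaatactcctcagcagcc
Cxcl9 (chr5:92328080-92328329, minus strand): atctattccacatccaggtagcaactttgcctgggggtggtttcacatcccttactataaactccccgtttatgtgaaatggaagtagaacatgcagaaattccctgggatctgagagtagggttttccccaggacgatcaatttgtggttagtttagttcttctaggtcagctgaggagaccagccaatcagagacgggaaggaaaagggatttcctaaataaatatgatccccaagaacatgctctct

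GGGAATTTCC was present in the windows of Cxcl1, Cxcl2 and Cxcl3, starting 71, 97 and 73 bases before the start site, with a match of GGGANNTTCC on the opposite strand in each, shifted by 1 base. In all, 28 of 32851 promoters of that length held GGGAATTTCC, or 0.0852%. Those letters were taken from the Cxcl1 window, so its match was fixed in advance and the share tests nothing. GGGANNTTCC was present in 397 promoters, or 1.21%. Among the 29 members with an entry it was present in 4, namely Cxcl1, Cxcl2, Cxcl3 and Cxcl10. In Cxcl10 it began 159 bases before the start. The Cxcl9 window held no match. A match describes the letters only, and no binding was measured here. Any relation of the motif to the rises and falls was not tested. Cxcl5 had no promoter entry.

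Cxcl9 and Cxcl10, neighbours on chromosome 5 that both act through CXCR3 on activated T and NK cells and are both known as interferon-gamma targets, moved in opposite directions. Cxcl9 fell, with 1.12, 2.14 and 3.05 CPM in DTR_PBS hearts, against 4.62, 6.06 and 7.31 CPM in WT_PBS hearts, a log2 fold change of -1.54 ± 0.29 (SE, adjusted p = 0.000195). Cxcl10 rose, with 2.67, 5.37 and 7.54 CPM in DTR_PBS hearts, against 0.428, 0.671 and 1.55 CPM in WT_PBS hearts, a log2 fold change of 2.71 ± 0.63 (SE, adjusted p = 0.00126). In neither gene did the groups overlap. Their ratio, Cxcl10 to Cxcl9 in CPM per kilobase, was 1.63, 3.20 and 8.33 in DTR_PBS hearts, against 0.107, 0.139 and 0.315 in WT_PBS hearts. Exons of Art3 on the opposite strand cover 5.91% of Cxcl10, and the libraries do not record strand. Within the tag letters, the Cxcl9 difference was -0.92 (U, adjusted p = 0.0585) and -2.04 (V, adjusted p = 0.0106). Cxcr3 did not pass the test at 0.25 to 0.88 CPM in DTR_PBS hearts, against 0.0699 to 0.58 CPM in WT_PBS hearts, with a log2 fold change of 0.42 ± 0.68 (SE, adjusted p = 0.658). Cxcl11, annotated as a polymorphic pseudogene, was below the filter with 17 reads in all.

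Ccl17 and Ccl22, ligands of CCR4 made by dendritic cells and macrophages, were nearly absent from uninjured hearts. Ccl22 had 1.38, 4.62 and 5.76 CPM in DTR_PBS hearts, against 0, 0.0175 and 0.57 CPM in WT_PBS hearts, a log2 fold change of 4.63 ± 0.78 (SE, adjusted p = 7.56e-05). Ccl17 had 0.801, 1.12 and 4.88 CPM in DTR_PBS hearts, against 0, 0.0658 and 0.143 CPM in WT_PBS hearts, a log2 fold change of 4.24 ± 0.85 (SE, adjusted p = 0.000329). Both were free of overlap, while their receptor gene Ccr4 had only 25 reads in all libraries together.

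Of the CCR7 system, which guides dendritic cells and lymphocytes to lymphatics, Ccl19 and Ccr7 rose. Ccl19 had 0.644, 0.91 and 3.13 CPM in DTR_PBS hearts, against 0, 0.447 and 0.713 CPM in WT_PBS hearts, a log2 fold change of 1.66 ± 0.54 (SE, adjusted p = 0.0146). Ccr7 had 0.443, 1.4 and 2.9 CPM in DTR_PBS hearts, against 0.035, 0.214 and 0.543 CPM in WT_PBS hearts, a log2 fold change of 2.60 ± 0.76 (SE, adjusted p = 0.00706). Both genes overlapped between the groups. Without DTR_PBS replicate 5 the Ccl19 call was lost, as it was within either tag letter. Ccl21a, the more abundant CCR7 ligand, had 5.71, 7.02 and 12 CPM in DTR_PBS hearts, against 4.86, 6.66 and 9.48 CPM in WT_PBS hearts, and its log2 fold change of 0.14 ± 0.26 (SE, adjusted p = 0.699) did not pass. Ccl21b and Ccl21c, near-identical copies of Ccl21a, were listed at 0 reads, and how reads were assigned between the copies is uncertain. Ackr4, which takes up CCL19 and CCL21, fell, with 0.443, 1.69 and 3.25 CPM in DTR_PBS hearts, against 2.61, 4.31 and 6.12 CPM in WT_PBS hearts and a log2 fold change of -1.29 ± 0.43 (SE, adjusted p = 0.0177). Exons of Acad11 on the opposite strand cover 8.90% of it, and its call was lost without DTR_PBS replicate 1.

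CX3CL1 and CXCL16 are the ligands that cells carry on their membrane. Cx3cr1, the fractalkine receptor of resident macrophages and patrolling monocytes, had 16.9, 25.7 and 41 CPM in DTR_PBS hearts, against 2.9, 8.75 and 11.4 CPM in WT_PBS hearts, and rose without overlap by 1.81 ± 0.40 (log2 ± SE, adjusted p = 0.000808). Its ligand Cx3cl1, made by endothelium, had 23, 25.5 and 31 CPM in DTR_PBS hearts, against 10.3, 15.9 and 28.7 CPM in WT_PBS hearts, and a log2 fold change of 0.58 ± 0.25 (SE, adjusted p = 0.0651) that did not pass. Cxcl16, a membrane-bound ligand and scavenger receptor of macrophages, had 16.9, 20.9 and 36.1 CPM in DTR_PBS hearts, against 5.78, 9.34 and 12.8 CPM in WT_PBS hearts, and rose by 1.30 ± 0.33 (log2 ± SE, adjusted p = 0.00279). The Cxcl16 groups did not overlap, although 18.3% of its exon bases also belong to Zmynd15 on the other strand. Cxcr6, the CXCL16 receptor of tissue T and NKT cells, had 0.757, 2.21 and 12.7 CPM in DTR_PBS hearts, against 0.0713, 0.349 and 0.543 CPM in WT_PBS hearts, and rose by 3.86 ± 0.72 (log2 ± SE, adjusted p = 0.000182) without overlap.

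Of the homeostatic CXCL12 axis, the ligand and its scavenger fell and the signalling receptor was not called. Cxcl12 (chr6:117168535-117181367) had 135, 174 and 192 CPM in DTR_PBS hearts, against 224, 239 and 273 CPM in WT_PBS hearts, and fell, with a log2 fold change of -0.53 ± 0.14 (SE, adjusted p = 0.00278). No injured library reached the lowest uninjured one. Ackr3, the scavenger of CXCL12, had 29.7, 63.7 and 92.3 CPM in DTR_PBS hearts, against 82.8, 90.4 and 102 CPM in WT_PBS hearts, and fell, with a log2 fold change of -0.57 ± 0.20 (SE, adjusted p = 0.0243) with overlap, and the call was lost without DTR_PBS replicate 1 and without DTR_PBS replicate 2. Cxcr4, the signalling receptor, had 6.49, 12 and 16.8 CPM in DTR_PBS hearts, against 5.73, 9.0 and 15.8 CPM in WT_PBS hearts, and its log2 fold change of 0.39 ± 0.22 (SE, adjusted p = 0.159) did not pass. Scaling by total counts put the median of all genes at 0.39 on the log2 scale. It left Cxcl12 at -0.18 (adjusted p = 0.259), Ackr3 at -0.25 (adjusted p = 0.248) and Ackr4 at -0.95 (adjusted p = 0.0593), below 0 but not called. Cxcl14, an abundant ligand of uninjured hearts, had 42.7, 65.6 and 80.2 CPM in DTR_PBS hearts, against 15.8, 22.5 and 25.1 CPM in WT_PBS hearts, and rose without overlap by 1.54 ± 0.32 (log2 ± SE, adjusted p = 0.000475).

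**Figure D3:**
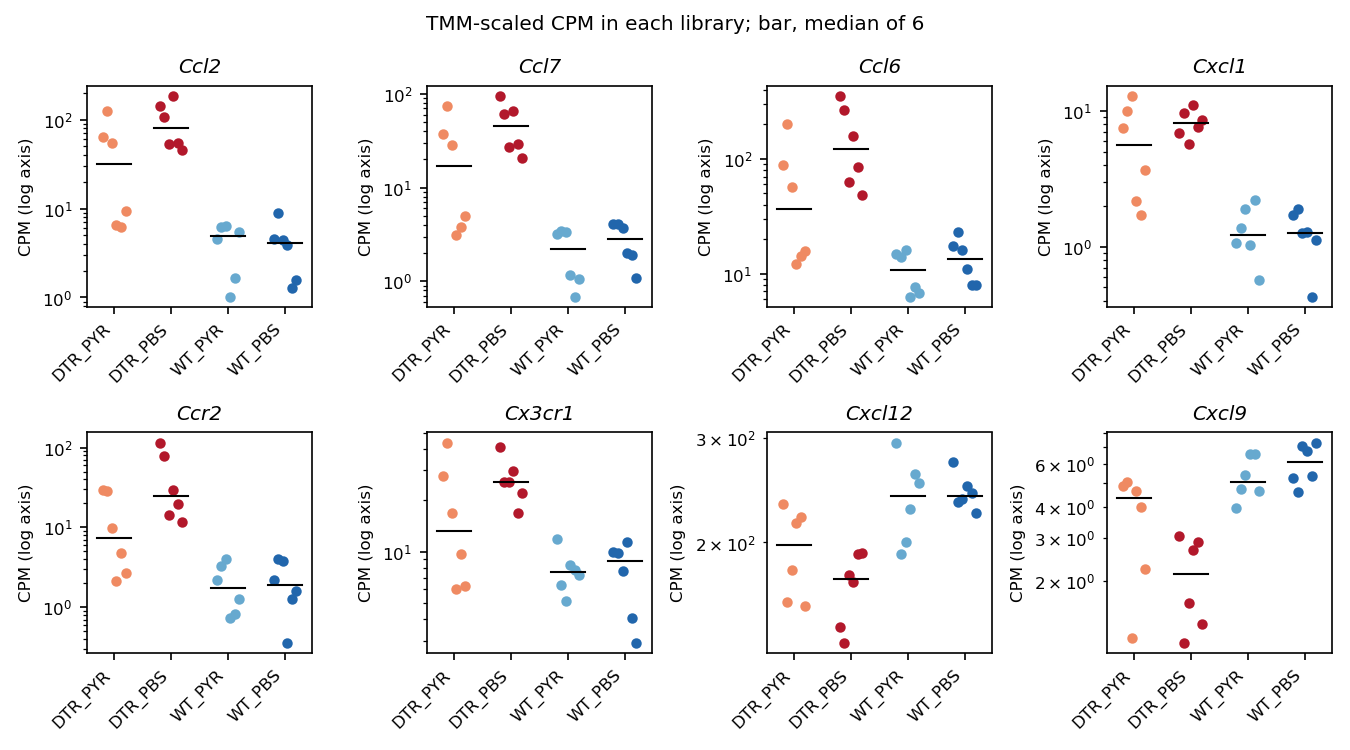
TMM-scaled CPM (vertical log axis) of 8 chemokine and receptor genes in each of the 24 libraries, with a bar at the median of 6. Ccl2, Ccl7, Ccl6, Cxcl1, Ccr2 and Cx3cr1 were higher, and Cxcl12 and Cxcl9 lower, in every DTR_PBS library than in every WT_PBS library. Ccl2 spread from 6.23 to 124 CPM over the DTR_PYR libraries.

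The remaining tested members were the eosinophil attractants and a few tissue-restricted pairs. Ccl11 had 1.6, 4.4 and 11.4 CPM in DTR_PBS hearts, against 1.63, 2.01 and 3.86 CPM in WT_PBS hearts, and rose by 1.26 ± 0.43 (log2 ± SE, adjusted p = 0.0201) with overlap, and the call was lost without DTR_PBS replicate 1. Ccl24 was higher in every DTR_PBS library (1.95 to 3.1 CPM) than in any WT_PBS library (0.643 to 1.64 CPM), but its log2 fold change of 0.81 ± 0.36 (SE, adjusted p = 0.0682) did not pass. Ccr3, the receptor of both, had 22 reads in all and was not tested. Ccl27a, a skin-type ligand of CCR10, had 0.372, 0.808 and 1.6 CPM in DTR_PBS hearts, against 1.09, 2.09 and 3.42 CPM in WT_PBS hearts, and fell, with a log2 fold change of -1.31 ± 0.38 (SE, adjusted p = 0.0073), with overlap. A second annotated copy of Ccl27a and Ccl27b were at 0 reads, so the assignment between these copies is uncertain, and the call was lost within either tag letter. The other 4 members outside the immune axes above did not pass: the log2 fold change was 1.07 ± 0.44 (SE, adjusted p = 0.053) for Ccl25, -0.23 ± 0.39 (SE, adjusted p = 0.677) for Ccr10, -0.26 ± 0.76 (SE, adjusted p = 0.814) for Cxcr5, the B cell receptor of CXCL13, and -0.03 ± 0.40 (SE, adjusted p = 0.957) for Ackr2, a scavenger of inflammatory CC chemokines.

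Of the 22 members below the filter, 14 were ligands by symbol, 7 receptors and 1 an atypical receptor, and 6 had 0 reads in all 24 libraries. The ligand symbols include the pseudogenes Ccl19-ps1 and Ccl19-ps3. The highest totals were 111 reads for Ackr1, 78 for Ccr9 and 56 for Ccl28, out of 306833750 reads counted. Ackr1, the chemokine receptor of red cells and venules, reached at most 1.78 CPM in a DTR_PYR library, 0.902 CPM in DTR_PBS, 0.352 CPM in WT_PYR and 0.272 CPM in WT_PBS. A gene at 0 reads in every library may still have been present at up to 0.00978 CPM, the value of 3 reads over all libraries together. That limit covers counting error only. It does not bound Ccl21b, Ccl21c, Ccl27b and the second Ccl27a, where the assignment of reads between copies is uncertain.

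In the genomic neighbourhoods below, chosen by hand, most tested genes rose, but so did 63.4% of all 41 tested members. Whether neighbours moved together more than other members was not tested. On chromosome 11 all 5 tested genes of the Ccl2 cluster (chr11:82035571-82116799, 81.2 kb, holding Ccl2, Ccl7, Ccl11, Ccl12 and Ccl8) rose, and 4 of 5 in the Ccl5 cluster (chr11:83525778-83664683, 139 kb) did, with Ccl5 the exception. On chromosome 5 all 4 tested genes of the Cxcl1 cluster (chr5:90759360-90905938, 147 kb) rose, while Cxcl9 fell and Cxcl10 rose within 27.5 kb (chr5:92321347-92348889). On chromosome 8 (chr8:94745590-94812035, 66.4 kb) Ccl22 and Ccl17 rose and Cx3cl1 between them did not pass. On chromosome 9 the tested receptor genes Cxcr6, Ccr1 and Ccr2 (chr9:123806477-124113557, 307 kb) all rose, while Ccr3 and Ccr1l1 in that span were below the filter. On chromosome 4 Ccl19 (chr4:42754525-42756577) rose and its neighbour Ccl21a (chr4:42772860-42773993) did not pass.

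**Figure D4:**
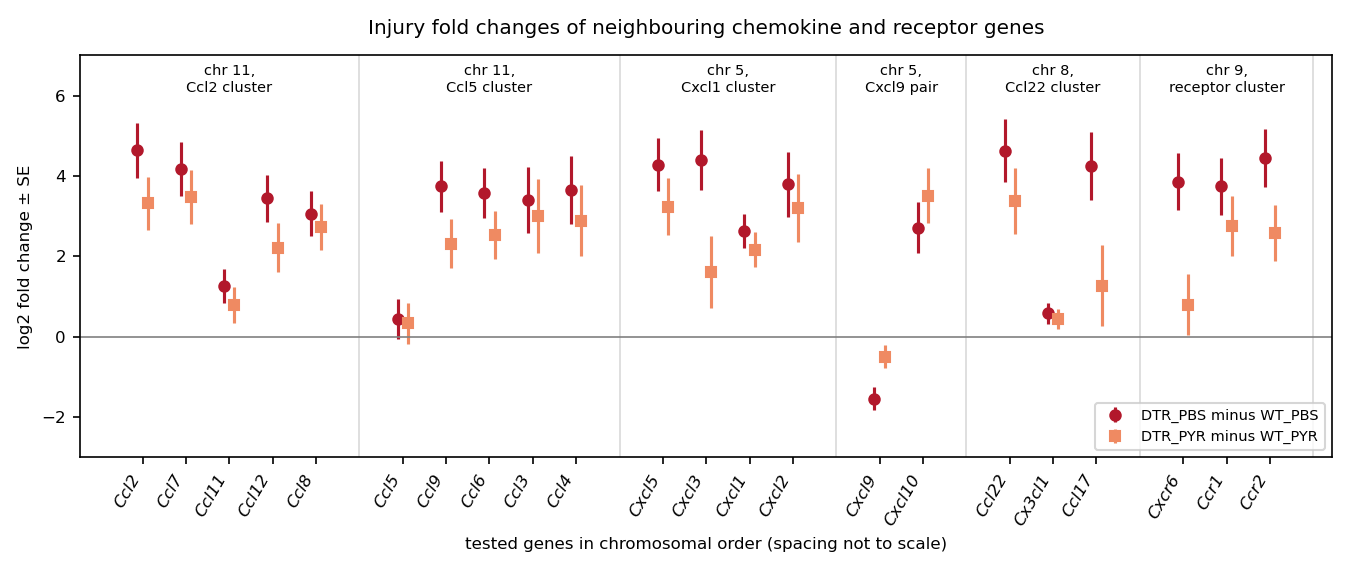
Log2 fold change ± SE (vertical axis) of tested chemokine and receptor genes in 6 genomic neighbourhoods, in chromosomal order, under PBS (dark red circles) and under pyridostigmine (orange squares). In the Cxcl9 pair the fold changes under PBS were -1.54 for Cxcl9 and 2.71 for Cxcl10. In the Ccl2 cluster they ran from 1.26 to 4.64.

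Other genes of the pathway were read from lists written from general knowledge. Their counts compare with 21.3% of all tested genes that rose and 21.6% that fell. All 13 tested inducers of chemokines (of 19 listed) rose in DTR_PBS against WT_PBS hearts, among them the interleukin receptor Il1r1 (log2 fold change 1.94), the alarmin Il33 (2.72), Il17ra (2.33) and the cytokine Il6 (5.65). Of 16 NF-kappa-B factors and feedback regulators, 11 rose and 1 fell, with the co-regulators Nfkbiz at 2.11 and Bcl3 at 2.05, the kinase Map3k14 at 1.16 and Relb at 0.85. The fall was Ikbkg (-0.67), named after its value was seen. Of 28 tested genes of receptor signalling, 20 rose and 1 fell, led by the phosphoinositide kinase subunits Pik3r5 (3.19) and Pik3cg (2.02), the integrin chain Itgb2 (3.14) and the kinase Fgr (4.38). The fall was the signalling inhibitor Rgs2 (-1.07), also named after its value was seen.

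Of 13 tested chemoattractant genes outside the name rule, 8 rose and 3 fell. The complement receptors C5ar1 and C3ar1 rose by 3.03 and 3.07 on the log2 scale and the receptor Gpr35 by 4.09, while Ccrl2, which presents the attractant chemerin, had a log2 fold change of -1.65. The other falls, named after their values were seen, were Pitpnm3 (-1.36) and the chemerin gene Rarres2 (-0.89). Of 13 tested genes of chemokine scavenging and processing, 5 rose and 0 fell, among them the proteases Mmp12 (2.46) and Mmp14 (2.26) and the syndecans Sdc1 (2.47) and Sdc4 (1.19), which bind chemokines at the cell surface. The median log2 fold change was 1.68 for the inducers, 0.73 for the NF-kappa-B list, 1.12 for signalling, 2.18 for the other chemoattractants and 0.52 for scavenging, against 0.01 for all tested genes.

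Macrophage and monocyte markers were called higher in the same comparison, in which 21.3% of all tested genes rose and 21.6% fell. Macrophage markers, 11 of 12 of which rose, summed to 861 to 2552 CPM in DTR_PBS libraries, against 305 to 444 CPM in WT_PBS libraries. Recruited monocyte markers, 7 of 8 of which rose, summed to 189 to 547 CPM in DTR_PBS libraries, against 13.3 to 36.9 CPM in WT_PBS libraries. The ranges were separate for both lists. Neutrophil markers, with 2 of 4 tested genes up, summed to 8.27 to 26.2 CPM in DTR_PBS libraries, against 1.96 to 6.73 CPM in WT_PBS libraries, where Ly6g and Camp were at 0. Dendritic cell markers had 4 of 6 up and 1 down, and summed to 25.3 to 40.8 CPM in DTR_PBS libraries, against 21.4 to 32.1 CPM in WT_PBS libraries. Of T cell markers 0 of 6 were called and their sum was 3.68 to 10.1 CPM in DTR_PBS libraries, against 3.09 to 6.25 CPM in WT_PBS libraries.

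Among resident cells, endothelial markers had 5 of 7 down and summed to 607 to 785 CPM in DTR_PBS libraries, against 986 to 1286 CPM in WT_PBS libraries. Lymphatic endothelial markers, with 3 of 5 down and 1 up, summed to 85.3 to 132 CPM in DTR_PBS libraries, against 152 to 167 CPM in WT_PBS libraries. Ventricular cardiomyocyte markers, 5 of 7 down, summed to 18638 to 55502 CPM in DTR_PBS libraries, against 69011 to 78957 CPM in WT_PBS libraries, and were thus abundant in all 12. Pericyte and smooth muscle markers had 3 of 6 down and 1 up, and summed to 591 to 804 CPM in DTR_PBS libraries, against 801 to 1505 CPM in WT_PBS libraries. Fibroblast markers had 3 of 7 up, but their sums were separate, at 1831 to 3696 CPM in DTR_PBS libraries, against 728 to 865 CPM in WT_PBS libraries. Of the other lists, 1 of 5 B cell and 1 of 3 atrial markers rose and 2 of 5 red cell and platelet markers fell. Of NK cell markers 0 of 3, of mast cell markers 0 of 3 and of mesothelial markers 0 of 4 were called. Since 21.3% of all tested genes rose and 21.6% fell, such small counts say little about these cell types. The part of these cell types in the chemokine results was not tested.

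Under pyridostigmine, injury gave fewer calls in the same direction. In DTR_PYR against WT_PYR hearts 18 members rose and 0 fell, against 8.06% of all tested genes that rose, 4.17% that fell and 12.2% called either way. They were 15 of 27 ligands and 3 of 11 receptors, and all 18 were among the 26 that rose under PBS, or 69.2% of those. Ccl11, Ccl17, Ccl19, Cxcl3, Ccr7, Cx3cr1, Cxcr2 and Cxcr6 were called under PBS alone, which does not show that the effects differ. The median log2 fold change over the 41 members was 1.22, against 0.04 over all tested genes. In 0 members did all DTR_PYR libraries lie above all WT_PYR libraries, against 2.19% of all tested genes, and in 0 did they all lie below, against 3.18%.

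Ccl7, Cxcl10 and Ccl2 had the smallest p values among the members. Ccl2 had 6.23, 31.7 and 124 CPM in DTR_PYR hearts, against 1.02, 4.96 and 6.31 CPM in WT_PYR hearts, a log2 fold change of 3.32 ± 0.65 (SE, adjusted p = 0.00324). Ccl7 had 3.13, 16.9 and 74.3 CPM in DTR_PYR hearts, against 0.686, 2.19 and 3.47 CPM in WT_PYR hearts, a log2 fold change of 3.47 ± 0.67 (SE, adjusted p = 0.00296). For both, 5 of 6 DTR_PYR libraries exceeded the highest WT_PYR library. Cxcl10 had 1.17, 1.68 and 23.1 CPM in DTR_PYR hearts, against 0.141, 0.457 and 1.17 CPM in WT_PYR hearts, a log2 fold change of 3.51 ± 0.68 (SE, adjusted p = 0.00301), with 1 library, DTR_PYR replicate 2, far above the others. Ccl8 had 0.864, 3.65 and 10.1 CPM in DTR_PYR hearts, against 0.293, 0.497 and 1.14 CPM in WT_PYR hearts, and rose by 2.73 ± 0.58 (log2 ± SE, adjusted p = 0.0049). Ccl12 had 0.801, 2.62 and 13.6 CPM in DTR_PYR hearts, against 0.137, 0.953 and 1.55 CPM in WT_PYR hearts, and rose by 2.22 ± 0.60 (log2 ± SE, adjusted p = 0.02). In these genes, too, 5 of 6 DTR_PYR libraries were above every WT_PYR library.

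Among the receptors called under pyridostigmine were Ccr2 and Ccr1, both carried by monocytes. Ccr2 had 2.16, 7.27 and 29.4 CPM in DTR_PYR hearts, against 0.732, 1.74 and 4.03 CPM in WT_PYR hearts, a log2 fold change of 2.59 ± 0.70 (SE, adjusted p = 0.0191). Ccr1 had 0.801, 4.68 and 25.2 CPM in DTR_PYR hearts, against 0.585, 0.883 and 1.88 CPM in WT_PYR hearts, a log2 fold change of 2.75 ± 0.75 (SE, adjusted p = 0.0199). For Ccr2 4 of 6 and for Ccr1 3 of 6 injured libraries exceeded the highest uninjured one. The inflammatory CC ligands rose by 2.54 ± 0.60 for Ccl6, 2.31 ± 0.61 for Ccl9, 3.0 ± 0.91 for Ccl3 and 2.89 ± 0.87 for Ccl4 (log2 ± SE), with adjusted p of 0.00922, 0.0174, 0.033 and 0.0323.

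Ccl6 had 12.1, 36.5 and 202 CPM in DTR_PYR hearts, against 6.29, 10.8 and 16 CPM in WT_PYR hearts. Ccl9 had 6.73, 16.8 and 98.2 CPM in DTR_PYR hearts, against 2.78, 5.2 and 9.94 CPM in WT_PYR hearts. These 2 myeloid ligands were above the WT_PYR range in 3 of 6 injured libraries. Ccl3 had 0, 1.13 and 7.99 CPM in DTR_PYR hearts, against 0, 0.22 and 0.456 CPM in WT_PYR hearts, and Ccl4 had 0.108, 0.697 and 8.88 CPM in DTR_PYR hearts, against 0, 0.139 and 0.762 CPM in WT_PYR hearts. Ccl22 had 0.108, 1.41 and 5.33 CPM in DTR_PYR hearts, against 0, 0.168 and 0.275 CPM in WT_PYR hearts, and rose by 3.38 ± 0.82 (log2 ± SE, adjusted p = 0.0107). The call for its fellow CCR4 ligand Ccl17 was not made, at 0, 0.201 and 2.34 CPM in DTR_PYR hearts, against 0, 0.0456 and 0.403 CPM in WT_PYR hearts, with a log2 fold change of 1.27 ± 1.02 (SE, adjusted p = 0.419).

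Of the CXCR2 ligands, Cxcl1, Cxcl2 and Cxcl5 rose. Cxcl1 had 1.71, 5.59 and 12.9 CPM in DTR_PYR hearts, against 0.563, 1.22 and 2.2 CPM in WT_PYR hearts, a log2 fold change of 2.16 ± 0.43 (SE, adjusted p = 0.00363). Cxcl2 had 0, 1.88 and 8.19 CPM in DTR_PYR hearts, against 0, 0.208 and 0.672 CPM in WT_PYR hearts, a log2 fold change of 3.20 ± 0.84 (SE, adjusted p = 0.0169). Cxcl5 had 0.477, 1.97 and 8.58 CPM in DTR_PYR hearts, against 0, 0.251 and 0.878 CPM in WT_PYR hearts, a log2 fold change of 3.24 ± 0.71 (SE, adjusted p = 0.006). Each had 4 of 6 DTR_PYR libraries above the highest WT_PYR library. Cxcl3, with 0, 0.308 and 1.03 CPM in DTR_PYR hearts, against 0, 0.114 and 0.269 CPM in WT_PYR hearts, and Cxcr2, with 0.39, 1.34 and 5.33 CPM in DTR_PYR hearts, against 0, 1.39 and 1.51 CPM in WT_PYR hearts, did not pass. Their log2 fold changes were 1.62 ± 0.90 (SE, adjusted p = 0.229) and 0.76 ± 0.57 (SE, adjusted p = 0.388).

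Cxcl14 had 14.3, 40.2 and 73.6 CPM in DTR_PYR hearts, against 9.66, 19.9 and 32 CPM in WT_PYR hearts, and Cxcl16 had 8.97, 14.2 and 47.6 CPM in DTR_PYR hearts, against 5.14, 8.66 and 11.1 CPM in WT_PYR hearts. They rose by 1.07 ± 0.32 and 1.22 ± 0.34 (log2 ± SE, adjusted p = 0.0314 and 0.0218). Cx3cr1 missed the threshold at 6.05, 13.2 and 43.8 CPM in DTR_PYR hearts, against 5.1, 7.57 and 11.8 CPM in WT_PYR hearts, with a log2 fold change of 1.19 ± 0.40 (SE, adjusted p = 0.051). Cxcr6 had 0.108, 0.71 and 3.85 CPM in DTR_PYR hearts, against 0.211, 0.548 and 1.02 CPM in WT_PYR hearts, a log2 fold change of 0.80 ± 0.76 (SE, adjusted p = 0.508). Ccr7 had 0, 1.13 and 3.12 CPM in DTR_PYR hearts, against 0, 0.208 and 0.585 CPM in WT_PYR hearts, a log2 fold change of 2.04 ± 0.83 (SE, adjusted p = 0.102). Neither of these receptors was called. Ccl11 with 1.28, 3.19 and 8.58 CPM in DTR_PYR hearts, against 0.961, 1.81 and 4.43 CPM in WT_PYR hearts, and Ccl19 with 0.48, 0.66 and 1.77 CPM in DTR_PYR hearts, against 0.274, 0.536 and 0.961 CPM in WT_PYR hearts, were not called either, with adjusted p of 0.245 and 0.554.

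The 5 genes that fell under PBS were not called under pyridostigmine. Cxcl12 had 156, 198 and 233 CPM in DTR_PYR hearts, against 191, 239.8 and 295 CPM in WT_PYR hearts, a log2 fold change of -0.29 ± 0.14 (SE, adjusted p = 0.151). Cxcl9 had 1.17, 4.33 and 5.03 CPM in DTR_PYR hearts, against 3.96, 5.06 and 6.59 CPM in WT_PYR hearts, a log2 fold change of -0.49 ± 0.28 (SE, adjusted p = 0.248). Ackr3 had 40.5, 82.3 and 100.2 CPM in DTR_PYR hearts, against 86.8, 111 and 115 CPM in WT_PYR hearts, a log2 fold change of -0.43 ± 0.20 (SE, adjusted p = 0.16). All of them overlapped between the groups. Ackr4 (0.592 to 5.4 CPM in DTR_PYR hearts, against 2.63 to 7.76 CPM in WT_PYR hearts) and Ccl27a (0.592 to 2.81 CPM in DTR_PYR hearts, against 1.1 to 2.01 CPM in WT_PYR hearts) had adjusted p of 0.347 and 0.878. Cxcr4, Cx3cl1 and Ccl21a ran from 8.49 to 13.3, 15 to 46.2 and 4.97 to 11.5 CPM in DTR_PYR hearts, against 10.3 to 15.1, 13 to 31.2 and 7.93 to 19.1 CPM in WT_PYR hearts, and were not called. Ccl5, Ccl24, Ccl25, Ccr10, Cxcr3, Cxcr5 and Ackr2 were not called either, with log2 fold changes of 0.33, -0.51, 0.95, -0.45, 0.66, 1.37 and -0.25 in that order.

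The DTR_PYR libraries differed widely among themselves. In 22 of the 26 members that rose under PBS, and in 16 of the 18 called under pyridostigmine, the 3 lowest DTR_PYR libraries were replicates 4, 5 and 6. The share of all tested genes with this order was not counted. On the first principal component of all tested genes these 3 libraries also lay beside the WT groups. Ccl2 was at 54.2 CPM or more in DTR_PYR replicates 1 to 3 and at 9.29 CPM or less in replicates 4 to 6, and Ccr2 was at 9.75 CPM or more and 4.80 CPM or less. Of the 18 calls, 7 had 3 DTR_PYR libraries above the highest WT_PYR library and 11 had 4 or 5. With those 3 libraries left out, an alternative chosen after the data were seen, 24 members rose and 1 (Ackr3) fell in DTR_PYR against WT_PYR hearts, and the log2 fold change was 4.22 for Ccl2, 3.47 for Ccr2 and 1.91 for Cx3cr1, which was then called (adjusted p = 0.000196). Over all genes that alternative called 5027, against 1891 with all libraries.

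Tag letter and these libraries overlap, since DTR_PYR replicates 1 and 2 carry U and replicates 3 to 6 carry V. Within U, 22 members rose and 2 fell with injury under pyridostigmine, of 4371 calls over all genes. Within V 0 members and 0 genes were called, although all 18 had log2 fold changes above 0, from 0.15 to 2.58 with a median of 0.97. Under PBS, 25 members rose and 3 fell within U, of 5910 calls over all genes, and 22 rose and 1 fell within V, of 2520. The medians of the 26 rises were 4.17 within U and 3.35 within V. With tag letter as a term in the fit of all libraries, 21 members rose and 0 fell under pyridostigmine, of 2920 calls over all genes. In that fit 28 rose and 5 fell under PBS, of 7162 calls. Omitting DTR_PYR replicate 2 alone left 8 rises under pyridostigmine, with 750 calls over all genes, and omitting replicate 1 left 10, with 744 calls. In limma voom 1 member, Cxcl10, was called (2.51, adjusted p = 0.0308), of 787 calls over all genes. Without the animals tagged in the 200s, all of them uninjured, 6 members were called, of 318 calls over all genes. These calls over all genes compare, in edgeR with all libraries, with 1891 under pyridostigmine and 6634 under PBS.

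Fewer genes of each pathway list were called with injury under pyridostigmine than under PBS. The same held over all tested genes, of which 12.2% were called under pyridostigmine and 42.9% under PBS. Rises did not become fewer in every marker list: fibroblast markers had 4 of 7 up, against 3 under PBS, and T cell markers 1 of 6, against 0. Macrophage markers had 11 of 12 up, as under PBS, and summed to 422 to 2674 CPM in DTR_PYR libraries, against 273 to 497 CPM in WT_PYR libraries. Recruited monocyte markers had 5 of 8 up and summed to 34.6 to 342 CPM in DTR_PYR libraries, against 15.6 to 34.3 CPM in WT_PYR libraries. Endothelial markers had 3 of 7 down and summed to 661 to 1015 CPM in DTR_PYR libraries, against 1065 to 1416 CPM in WT_PYR libraries. Of 13 tested inducers 6 rose, with Il1r1 at 1.22, Il17ra at 1.62, Il1b at 2.84 and Il33 at 1.76 on the log2 scale. Receptor signalling had 10 of 28 up, the NF-kappa-B list 4 of 16, the other chemoattractants 4 of 13 and scavenging 2 of 13, with 0 down in each.

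Pyridostigmine compared with PBS in injured hearts gave no call in the family. In DTR_PYR against DTR_PBS hearts 0 of 41 members passed in edgeR, 13 had an unadjusted p under 0.05, and 0% of all 15456 tested genes were called. By other tools, DESeq2 called 1 member, among 242 of all genes, and limma voom called 19, among 1765 of all genes, each of these members lower in DTR_PYR. Log2 fold changes were below 0 in 31 members, with a median of -0.59 over the 41 and -0.01 over all tested genes. With DTR_PYR replicates 4, 5 and 6 left out, 17 members were below 0, the median was 0.03 and the lowest adjusted p 0.819. In 0 members did the groups separate fully, against 0.162% of all tested genes higher and 0.214% lower.

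The members with the smallest p values in injured hearts were Cxcl3, Cxcr6, Ccl17 and Ccr2. Cxcl3 had 0, 0.308 and 1.03 CPM in DTR_PYR hearts, against 0.50, 2.2 and 4.43 CPM in DTR_PBS hearts, a log2 fold change of -2.65 ± 0.69 (SE, adjusted p = 0.131), and -1.51 without replicates 4, 5 and 6. Cxcr6 had 0.108, 0.71 and 3.85 CPM in DTR_PYR hearts, against 0.757, 2.21 and 12.7 CPM in DTR_PBS hearts, a log2 fold change of -2.29 ± 0.68 (SE, adjusted p = 0.134), and -1.36 without those replicates. Both overlapped between the groups. Ccr2 had a log2 fold change of -1.86 ± 0.63 (SE, adjusted p = 0.148) and -0.99 without them, and Ccl17 had -2.43 ± 0.81 (SE, adjusted p = 0.144) and -0.98. Ccl2, at -1.18 ± 0.58 (log2 ± SE, adjusted p = 0.266), was at -0.26 without them. On the other side, Cxcl9 had 1.17, 4.33 and 5.03 CPM in DTR_PYR hearts, against 1.12, 2.14 and 3.05 CPM in DTR_PBS hearts, a log2 fold change of 0.84 ± 0.30 (SE, adjusted p = 0.156) and of 0.88 without those replicates.

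Single libraries moved this comparison. Without DTR_PYR replicate 2, 2404 of all genes were called, and with them 12 members, all lower in DTR_PYR, including Ccr2 at -2.25 (adjusted p = 0.025) and Ccl2 at -1.85 (adjusted p = 0.0319). Within tag letter V 9 members were called, all lower, of 769 calls over all genes, and within U 0 members and 0 genes were called. With tag letter as a term in the fit of all libraries, 0 members and 0 genes were called. Ccl2 had log2 differences of -0.80 within U and -1.94 within V, and Ccr2 of -1.36 and -2.87. Macrophage markers summed to 422 to 2674 CPM in DTR_PYR libraries, against 861 to 2552 CPM in DTR_PBS libraries, and recruited monocyte markers to 34.6 to 342 CPM in DTR_PYR libraries, against 189 to 547 CPM in DTR_PBS libraries. None of the pathway or marker genes was called in this comparison, and the part of these cells in it was not tested.

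**Figure D5:**
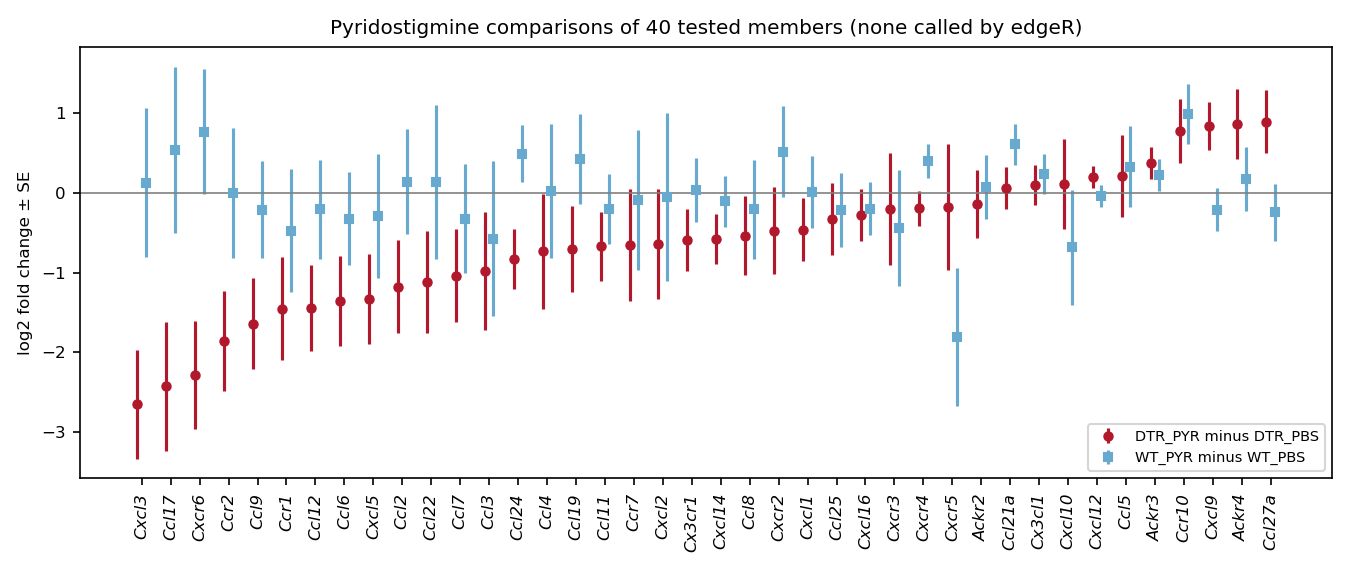
Log2 fold change ± SE (vertical axis) of 40 tested members with pyridostigmine, in injured hearts (red circles, DTR_PYR minus DTR_PBS) and in uninjured hearts (blue squares, WT_PYR minus WT_PBS), ordered by the injured value. In injured hearts 30 of those shown lay below 0, from -2.65 for Cxcl3 to 0.90 for Ccl27a, and in uninjured hearts 21 did. The edgeR test called 0 members in either comparison.

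In uninjured hearts pyridostigmine moved no member past the threshold. In WT_PYR against WT_PBS hearts edgeR called 0 of 41 members, with 3 at an unadjusted p under 0.05, and 0% of all tested genes. DESeq2 and limma voom also called 0 members, and the lowest adjusted p was 0.998. Ccr10, the receptor of CCL27 and CCL28, had 1.21, 1.6 and 2.93 CPM in WT_PYR hearts, against 0.428, 0.871 and 1.15 CPM in WT_PBS hearts, and was the single member whose groups did not overlap, as in 0.0906% of all tested genes on that side and 0.188% on the other. Its log2 fold change was 0.99 ± 0.37 (SE, adjusted p = 0.998). The others were Ccl21a at 0.61 ± 0.25 and Cxcr5 at -1.81 ± 0.87 (log2 ± SE). Ccl2 stood at 0.14 ± 0.66 (log2 ± SE).

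The difference between the pyridostigmine effects in injured and uninjured hearts was tested as an interaction, and edgeR called 0 of 41 members and 0% of all tested genes. An unadjusted p under 0.05 was reached by 6 members, DESeq2 and limma voom called 0, and 33 of 41 estimates were below 0. The smallest p was that of Cxcr6, at -3.06 ± 1.05 (log2 ± SE, adjusted p = 0.563). Ccl2 was at -1.32 ± 0.88 (adjusted p = 0.687), Ccr2 at -1.86 ± 0.96 (adjusted p = 0.634) and Cxcl9 at 1.05 ± 0.40 (adjusted p = 0.569), all as log2 ± SE. With DTR_PYR replicates 4, 5 and 6 left out, 21 of 41 estimates were below 0.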

How the data were processed

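Gene counts per Ensembl gene, unfiltered and not normalized, came from the table that the authors deposited, and all 24 library columns were used (0 columns were left aside). The deposited normalized and filtered tables were not used for any value. Build GRCm38 and the tools edgeR, DESeq, HTSeq, TopHat2 2.1.1, TopHat and Bowtie2 are listed in the submitters' processing notes. What each did, and which annotation was counted, is not stated there. Per the labels, libraries were single-end and not strand-specific, so reads of overlapping genes on opposite strands cannot be told apart, and reads of near-identical copies are uncertain. Genome positions come from the locus column, made 1-based.

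The members and lists were chosen with earlier results of these data known. Counts cover all members, 1 of which is not reported here by itself. The others tested are named, with full values for those called in any comparison and for a short list of ligands and receptors. Up to 4 called genes of each pathway list are named by adjusted p. Titles carry a distinct animal tag for each library. Replicate numbers follow accession order and pair nothing. The labels do not say more about separate cultures or litters, so p values measure the spread between these animals.

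Raw counts of genes that exceeded 0.5 CPM in 6 or more libraries were scaled by TMM and fitted with the edgeR 4.0.16 quasi-likelihood model (glmQLFit, glmQLFTest) in R 4.3.3, with 1 coefficient for each of 4 groups and all 24 libraries. The 5 contrasts were two-sided, with Benjamini-Hochberg adjustment over 15456 genes and calls at 0.05. Fold changes are edgeR log2 values, and SE is the absolute log2 value divided by the square root of F. CPM values are TMM-scaled. CPM per kilobase uses the union of exons in GENCODE vM21. The code was tested on simulated data. Alternatives were DESeq2 1.42.0, limma voom 3.58.1, other scalings and filters, tag letter, and each library left out.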

Additional observations from a re-analysis of the deposited data

Results flagged for a closer look

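Among 164 sets of 6 libraries (41 members in 4 groups, log2 of CPM plus 0.5), 10 had a highest or lowest library whose gap to the next, as a share of the whole range, was above Dixon's 95% critical value. Chance gives about 5% of such sets, and 10 of 164 is close to that share. The sets below are listed for checking and not as results about these genes. In DTR_PYR hearts, Ccl17 was highest in replicate 3 at 2.34 CPM and Ccl25, a thymic and gut chemokine, was highest in replicate 3 at 2.73 CPM. In DTR_PBS hearts, Ccl25 was lowest in replicate 4 at 0 CPM, the shallowest library.

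In WT_PYR hearts, Ackr3 was lowest in replicate 2 at 86.8 CPM, Ccl21a highest in replicate 1 at 19.1 CPM, Ccl27a lowest in replicate 5 at 1.10 CPM, Ccr10 highest in replicate 4 at 2.93 CPM, Cxcl16 lowest in replicate 6 at 5.14 CPM and Cxcr2 lowest in replicate 1 at 0 CPM. In WT_PBS hearts, Ccl22 was highest in replicate 4 at 0.57 CPM. These sets were 6 of WT_PYR, 2 of DTR_PYR, 1 of DTR_PBS and 1 of WT_PBS.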

How the results depend on the processing

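The comparisons were repeated under 36 alternatives, except that a fit of only the groups compared gives no interaction, and no called member reversed in any of them. For injury under PBS, 21 of the 31 calls held in every alternative in which the gene was tested. Members that fell numbered 2 under total-count scaling, 3 without the 200s tags, 3 within tag letter U, 1 within V and 3 to 5 with each library left out, against 5. Calls over all genes numbered 7461 under total-count scaling, 5494 without the 200s tags, 5910 within U and 2520 within V, against 6634. For injury under pyridostigmine, 0 of the 18 calls held throughout: rises numbered 1 with limma voom, 6 without the 200s tags, 0 within V, and 8 to 20 with each library left out (10 without DTR_PYR replicate 1 and 8 without replicate 2), and falls 1 without DTR_PYR 4, 5 and 6 and 2 within U. For pyridostigmine in injured hearts, lower members numbered 1 with DESeq2, 19 with limma voom, 9 within V, and 0 to 12 with each library left out (12 without DTR_PYR replicate 2). The causes were not tested. No other count of calls moved by over 1.5 times. Leaving out DTR_PYR 4, 5 and 6 together, and the splits by tag letter, were chosen after the data were seen. A filter of 13 libraries in place of 6 kept 33 members, so it gave no value for the other 8. No paired analysis was possible because replicate numbers follow accession order and no label ties animals across groups. Depth limits the members near the filter, where 3 reads make up to 1.60 CPM in the shallowest library.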
